A study of Homo sapiens with 10 samples.

Results

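The expression of 9 genes of the WNT pathway was followed, WNT5A, WNT5B, WNT7A, WNT7B, WNT10A, DKK1, DKK3, SFRP1 and AXIN2. The members were chosen by name, as WNT ligands, secreted WNT inhibitors and a feedback gene, with earlier results of these data known. A row with each symbol was found in both deposited tables. That is 9 of 26256 genes in the table of untreated cells and 9 of 55736 in the Nutlin-3a table. The name of the set holds for 8 of them, since AXIN2 is neither secreted nor a ligand but a scaffold inside the cell.

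Poly(A) RNA was sequenced from MCF10A, a non-transformed, immortalized human mammary epithelial line, and from G12V cells, which are MCF10A carrying the HRas oncogene, with 2 replicates each. The oncogene came in on a lentiviral vector with hygromycin selection, so a G12V culture is a selected population, and no library of cells with the empty or GFP vector was analysed here. A second experiment compared MCF10A given 10 µM Nutlin-3a, which frees p53 from MDM2, with MCF10A given the vehicle DMSO, both for 4 h, with 3 replicates each. All of these cells grew with EGF, insulin, hydrocortisone, cholera toxin and horse serum, and the Nutlin-3a experiment holds no G12V cells.

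WNT proteins are lipid-modified, secreted ligands that bind Frizzled receptors on nearby cells. With the co-receptors LRP5 and LRP6 they stop the destruction complex from degrading β-catenin, which then enters the nucleus and drives target genes with TCF and LEF factors, whereas other ligands act through ROR and RYK receptors without β-catenin. Secreted inhibitors limit the range of the signal. SFRP proteins bind the ligands themselves, and DKK1 blocks LRP5 and LRP6. In the mammary gland WNT signals are known for their part in branching and in the maintenance of basal and stem-like cells.

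Depth was similar across the libraries of each table, with 21538593 to 23683975 counts in the untreated table and 15453226 to 17378734 in the Nutlin-3a table. HRAS, the introduced gene, rose from 69.3 ± 4.77 CPM (SD, n = 2) in MCF10A to 573 ± 82.0 CPM (SD, n = 2) in G12V cells, with introduced and endogenous transcripts counted together (adjusted p = 0.00165 in edgeR). CDKN1A and MDM2, which p53 induces, rose after Nutlin-3a by 2.16 and 2.54 on the log2 scale, with adjusted p = 5.16e-04 and 0.00133 in edgeR. All tests without another name are edgeR's quasi-likelihood F-test. Levels are given as CPM, the read count scaled to the library size after TMM normalization. A gene is called where the adjusted p is under 0.05 and the absolute log2 fold change above 0.5, the thresholds of the methods. The methods call the replicates biological and say no more of their origin, so the p-values measure the spread between these libraries.

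The start regions of WNT5A, WNT7A and DKK1 are shown because these genes are the ligand that rose, the ligand that was nearly absent from G12V cells and a secreted inhibitor that is itself known as a target of β-catenin. They were taken from RefSeq on GRCh38.p14, a later build than the hg19 of the count tables, and run from 250 bases before the start to 50 after it. Entries were matched for 5 of the 9 members by symbol, and WNT5A has 2 start regions, of which the upstream one is printed. Capitals mark matches to the TCF/LEF core (CTTTG followed by 2 bases that are each A or T) and to the E-box bound by ZEB factors (CACCTG), both searched on either strand.
WNT5A, chr3:55487257-55487556, minus strand: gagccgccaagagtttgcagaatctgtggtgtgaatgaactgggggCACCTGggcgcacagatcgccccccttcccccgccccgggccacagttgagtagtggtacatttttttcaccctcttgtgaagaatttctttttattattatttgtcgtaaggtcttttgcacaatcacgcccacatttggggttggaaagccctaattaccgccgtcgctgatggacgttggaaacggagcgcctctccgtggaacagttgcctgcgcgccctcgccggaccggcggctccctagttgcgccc
WNT7A, chr3:13880022-13880321, minus strand: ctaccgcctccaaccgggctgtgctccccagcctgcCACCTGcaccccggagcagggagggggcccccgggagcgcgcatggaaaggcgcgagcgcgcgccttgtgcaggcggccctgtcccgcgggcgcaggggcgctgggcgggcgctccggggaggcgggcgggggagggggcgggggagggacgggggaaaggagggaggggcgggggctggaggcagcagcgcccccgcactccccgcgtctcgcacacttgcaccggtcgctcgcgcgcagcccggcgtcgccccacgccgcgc
DKK1, chr10:52314031-52314330, plus strand: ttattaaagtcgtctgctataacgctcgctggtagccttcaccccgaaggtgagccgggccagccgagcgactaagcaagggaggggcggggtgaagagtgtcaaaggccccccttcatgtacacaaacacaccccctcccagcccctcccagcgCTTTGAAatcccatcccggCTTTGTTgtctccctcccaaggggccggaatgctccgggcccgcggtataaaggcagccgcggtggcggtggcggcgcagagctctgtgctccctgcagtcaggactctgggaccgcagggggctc

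The window of DKK1 held 2 TCF/LEF cores, which began 95 and 76 bases before the start. A window with at least 1 such core was found for 13.8% of the 35116 start regions of this length, and one with 2 or more for 1.58%. Both WNT5A and WNT7A held a single E-box, 204 and 214 bases before the start, and 20.6% of all windows held one. The AP-1 site (TGAGTCA, either strand) and the unit of the p53 response element were in none of the windows of the 5 matched members, against 4.95% and 6.63% of all windows. GC content was 80.3% for WNT7A, 63.7% for DKK1 and 56.3% for WNT5A, with a median of 58.7% over all windows. These are matches of letters and not measured sites.

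In untreated MCF10A the inhibitors DKK1 and SFRP1 stood far above the ligands, and DKK3 did not. Compared per length of the canonical transcript, DKK1 had 128 CPM per kb (118.8 and 138.2 in the 2 libraries) and SFRP1 113.5 CPM per kb (110.3 and 116.7). Next came WNT7A with 1.72, WNT5A with 1.07, WNT5B with 0.900 and WNT7B with 0.834 CPM per kb, and the last 2 overlapped between libraries. DKK3 with 0.335 and WNT10A with 0.325 CPM per kb overlapped too, and AXIN2 was lowest with 0.0525 CPM per kb. In G12V cells the order was DKK1 (52.1 CPM per kb), SFRP1 (8.30), WNT5A (4.42) and WNT7B (0.768), followed by AXIN2 (0.190), WNT5B (0.149), WNT10A (0.0850), DKK3 (0.0339) and WNT7A (0.00536). The libraries of WNT5B there overlapped those of AXIN2, WNT10A and DKK3, and those of DKK3 and WNT7A overlapped as well.

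Between MCF10A and G12V cells, WNT5A rose 4.13-fold while WNT7A was all but lost and SFRP1 fell to 0.0733 of its rate in MCF10A. These 3 genes, 1 higher and 2 lower of 9 tested, passed the test, where 5.01% of the 14376 tested genes were called higher in G12V cells and 5.95% lower. The libraries of the groups did not overlap for 8 of the 9 members, against 54.8% of all tested genes. WNT7A, WNT10A and DKK3 had entered the test through the MCF10A libraries alone and AXIN2 through the G12V libraries alone, so for these a difference was bound to be seen. All 9 members were also chosen with earlier results of these data known, and the counts are no support on their own. Without MCF10A replicate 1 edgeR called 0 of 14883 genes of the whole table, with 2830 at an unadjusted p under 0.05, and the adjusted p of WNT5A, WNT7A and SFRP1 became 0.114, 0.0775 and 0.0571.

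WNT5A, a ligand known mainly for signals that do not pass through β-catenin, lies on chromosome 3 from 55499743 to 55521670 (hg19). It had 6.45 and 6.03 CPM in the MCF10A libraries and 22.4 and 29.2 CPM in the G12V libraries. Both G12V libraries were thus above both MCF10A libraries, with means of 25.8 ± 4.82 and 6.24 ± 0.297 CPM (SD, n = 2 each). On the log2 scale the rise was 2.05 (SE 0.26; adjusted p = 0.00780 in edgeR).

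WNT5B, its close relative, lies on chromosome 12 from 1726222 to 1756377. It went the other way in value, with 2.14 and 1.89 CPM in MCF10A and 0.0855 and 0.580 CPM in G12V cells. The G12V libraries rest on 2 and 13 reads, and the difference was not called (log2 fold change -2.59, SE 0.72, adjusted p = 0.0779 in edgeR). It was called by DESeq2 (adjusted p = 0.0362), by edgeR's exact test (adjusted p = 0.00427) and without G12V replicate 2 (adjusted p = 0.00492), the library with more reads.

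WNT7A, a ligand known from the patterning of the limb and of the female reproductive tract, lies on chromosome 3 from 13860082 to 13921618. MCF10A libraries had 163 and 143 reads, or 7.41 and 6.30 CPM. In G12V cells 1 read was counted in replicate 1 and 0 in replicate 2, where 0 reads allow up to 0.134 CPM. The rate in G12V cells was 0.00319 of that in MCF10A, with an exact 95% counting interval of 8.05e-05 to 0.0179. WNT7A was called lower (adjusted p = 0.00288 in edgeR), and its fitted log2 fold change moved from -7.97 to -5.98 when the prior count was raised to 2.

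WNT7B, the relative of WNT7A, lies on chromosome 22 from 46316248 to 46373008 and did not share this pattern in value. It had 3.68 and 2.91 CPM in MCF10A and 2.10 and 3.97 CPM in G12V cells. The groups overlapped, and the log2 fold change was -0.12 (SE 0.43, adjusted p = 0.91 in edgeR), with a sign that turned without MCF10A replicate 1 (0.07) or without G12V replicate 1 (0.27).

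WNT10A, a ligand known from tooth, hair and skin appendages, lies on chromosome 2 from 219745255 to 219758651. MCF10A libraries had 10 and 20 reads of it and G12V libraries 4 and 4, which gave 0.455 and 0.881 against 0.171 and 0.178 CPM. The groups did not overlap, but WNT10A had entered the test through the MCF10A libraries alone. Its log2 fold change of -1.90 (SE 0.59) was not called (adjusted p = 0.103 in edgeR).

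**Figure D1:**
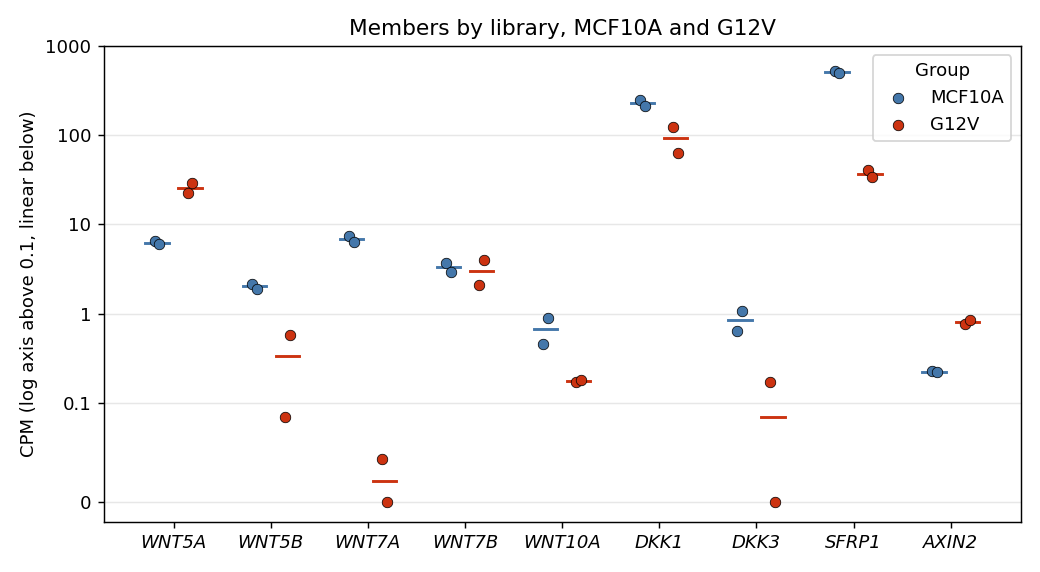
CPM of the 9 members in each MCF10A (blue) and G12V (red) library, on an axis that is logarithmic above 0.1 CPM and linear below. Points are libraries and short lines the means of 2. WNT5A and AXIN2 sit higher in both G12V libraries, WNT7B overlaps, and the other 6 sit lower.

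Of the 3 inhibitors SFRP1 alone was called. SFRP1, which binds WNT ligands through a domain like that of the Frizzled receptors and is often silenced in breast tumors, lies on chromosome 8 from 41119476 to 41166990. It had 521 and 492 CPM in MCF10A and 40.4 and 33.7 CPM in G12V cells, and both G12V libraries were far below both MCF10A libraries. The means were 507 ± 20.3 and 37.1 ± 4.79 CPM (SD, n = 2 each), and the fold on the log2 scale was -3.77 (SE 0.22; adjusted p = 8.94e-04 in edgeR). SFRP1 rests on 755 to 11464 reads a library.

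DKK1, the inhibitor of the LRP co-receptors, lies on chromosome 10 from 54074041 to 54077417. Libraries of MCF10A had 249 and 215 CPM, and those of G12V cells 125 and 63.2 CPM. The groups did not overlap, but the 2 G12V libraries lay further from each other, on a log scale, than the higher of them lay from the nearer MCF10A library. The log2 fold change of -1.30 (SE 0.34) was not called (adjusted p = 0.0659 in edgeR). DESeq2 called it (adjusted p = 0.00344), as did edgeR's exact test (0.00454) and the fits without MCF10A replicate 2 (0.0316) or without G12V replicate 1 (0.00187), the G12V library with the higher level.

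DKK3, a divergent member of the DKK family, lies on chromosome 11 from 11984543 to 12030917. MCF10A libraries had 14 and 24 reads of it and G12V libraries 4 and 0, that is 0.636 and 1.06 against 0.171 and 0 CPM. The log2 fold change was -3.21 (SE 0.92) and was not called (adjusted p = 0.0838 in edgeR). DESeq2 (adjusted p = 0.11) and edgeR without a filter (0.115) did not call it either, while edgeR's exact test did (0.00171). Without G12V replicate 1 no read was left in G12V cells, and the log2 fold change of -7.26 depends on the prior count.

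AXIN2, on chromosome 17 from 63524683 to 63557740, is a scaffold of the destruction complex and a widely used readout of β-catenin signaling. It had 5 reads in each MCF10A library and 18 and 19 reads in the G12V libraries, or 0.227 and 0.220 against 0.770 and 0.847 CPM. Replicates lay close together and the groups apart, at a depth of few reads, and AXIN2 had entered the test through the G12V libraries alone. The difference of 1.83 on the log2 scale (SE 0.48) was not called by edgeR's quasi-likelihood test (adjusted p = 0.065) and was called by the exact test (0.0223). It was not called by DESeq2 (adjusted p = 0.298) or by the quasi-likelihood test without a filter (0.108).

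**Figure D2:**
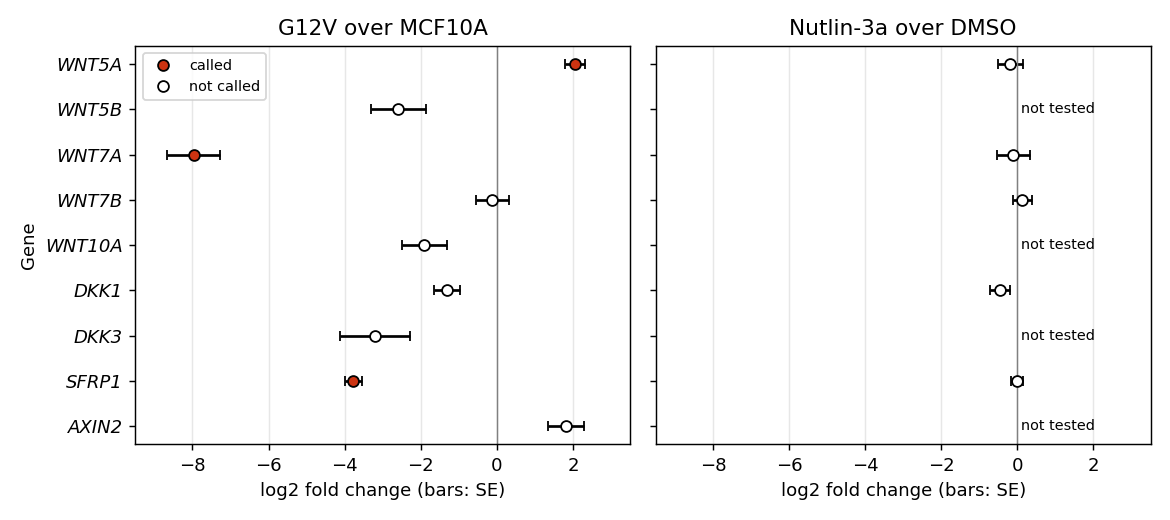
Log2 fold change of each member with its SE (bars), in G12V over MCF10A (left) and in Nutlin-3a over DMSO (right), with filled points for called genes. WNT5A, WNT7A and SFRP1 are filled on the left, no gene is filled on the right, and 4 members were not tested on the right.

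Markers of the cell type moved with these genes. Of 9 epithelial markers 7 were called lower in G12V cells, and their summed level went from 6927 and 8530 CPM in MCF10A to 1363 and 1662 CPM. CDH1, which encodes E-cadherin, went from 219 to 0.481 CPM, the basal keratin KRT14 from 412 to 0.110 CPM and the basal factor TP63 from 167 to 0.151 CPM. The basal keratin KRT5 had 3714 and 4675 CPM in MCF10A and kept 936 and 1220 CPM in G12V cells, most of the sum there. KRT8 was not called (log2 fold change 0.18). Of 6 mesenchymal markers CDH2, ZEB1, ZEB2 and SPARC were called higher and FN1 lower, and their summed level overlapped between the groups (1665 to 2088 CPM in MCF10A, 1632 to 2251 CPM in G12V). In the fibroblast list, 1 of 7 genes, LUM, was called higher. The collagens COL1A2 and COL3A1 had at most 1 read in any MCF10A or G12V library. COL1A1 had 254 and 133 reads in MCF10A and 76 and 104 in G12V cells, and DCN had 557 and 1324 against 1135 and 1190. The list summed to 37.5 to 64.9 CPM in MCF10A and 53.4 to 60.1 CPM in G12V. In the leukocyte list 1 of the 3 tested genes, CD68, was called higher. CD14 had 396 and 839 reads in MCF10A and 508 and 888 in G12V cells, and LYZ had 33 to 37 reads a library. The defining markers PTPRC and CD3E had at most 1 read in any of these 4 libraries. Sums of this list were 32.0 to 50.7 CPM in MCF10A and 60.6 to 114 CPM in G12V. No gene of the 4 in the endothelial list was called, with sums of 8.09 to 32.2 and 7.91 to 8.79 CPM. The part of these markers in the results on the members was not tested, and in bulk libraries fewer cells of a type and less RNA per cell cannot be told apart.

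The rest of the pathway changed in both directions. Besides the members, 80 genes of WNT signaling were listed, of which 52 were tested, and 4 of these were called higher and 5 lower in G12V cells, against the 5.01% and 5.95% of all tested genes. Their median log2 fold change was -0.02, the median of all tested genes was -0.0011, and the median stayed at -0.02 with the 3 genes that had no read in a group set to their bounds. At an unadjusted p under 0.05 there were 22, of which 10 were higher and 12 lower, against 25.6% of all tested genes. Without MCF10A replicate 1 none was called, and without MCF10A replicate 2 the calls were 3 and 4.

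Of the 10 other secreted inhibitors 2 were tested, and both were called higher in G12V cells from few reads. DKK2 and SOSTDC1 entered the test through the G12V libraries alone, and FZD10 and APCDD1 of the genes called lower through the MCF10A libraries alone, so for these 4 a difference was bound to be seen. DKK2, a relative of DKK1, had 3 and 7 reads in MCF10A and 49 and 61 in G12V cells (log2 fold change 3.40, SE 0.53, adjusted p = 0.0136 in edgeR). SOSTDC1, which binds LRP co-receptors and BMP ligands, had no read in MCF10A but 16 and 11 in the G12V libraries, at least 4.31-fold higher against 3 counts per library (adjusted p = 0.0235 in edgeR), and was not called without MCF10A replicate 2 (adjusted p = 0.0596).

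Of the 5 genes called lower 4 were receptors or co-receptors, of which 16 were tested, with 8 positive and 8 negative log2 fold changes and a median of 0.09. FZD4, which was not called, had 3.41 and 4.32 CPM in MCF10A and 9.49 and 33.4 CPM in G12V cells (log2 fold change 2.47, adjusted p = 0.0553 in edgeR). KREMEN1, a co-receptor that works with DKK1, fell from 43.3 ± 8.40 to 8.14 ± 1.29 CPM (SD, n = 2 each), a log2 fold change of -2.41 (adjusted p = 0.00529 in edgeR). FZD8 fell by 1.39 on the log2 scale (adjusted p = 0.0377) and FZD6 by 0.88 (adjusted p = 0.0347). FZD6 was not called in any fit that left out 1 library (adjusted p = 0.0913 to 0.148), nor was FZD8 without G12V replicate 2 (0.0691). FZD10 had 16 and 41 reads in MCF10A and none in G12V cells, at least 9.47-fold lower (adjusted p = 0.0237 in edgeR).

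APCDD1, a membrane protein that inhibits WNT signaling and is listed among the targets, had 54 and 68 reads in MCF10A and none in G12V cells, at least 20.4-fold lower (adjusted p = 0.00617 in edgeR). SP5, a transcription factor induced by β-catenin, had 14 and 15 reads in MCF10A and 53 and 42 in G12V cells. The log2 fold change, 1.67, stood at the threshold (adjusted p = 0.0496), and it was not called by DESeq2 (0.0850), with 3 other normalizations (0.0503 to 0.0519), without a filter (0.0597) or without any single library (0.0726 to 0.237). PYGO1, a cofactor of β-catenin, rose from 9.28 to 27.4 CPM (log2 fold change 1.56, adjusted p = 0.0103 in edgeR).

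In the sub-lists with no call, the gene with the highest mean CPM over both tables was taken. For the ligands this was WNT9A, through its 13.7 to 40.4 CPM in the Nutlin-3a experiment. In the untreated table WNT9A had 2.19 CPM in MCF10A and 0.614 CPM in G12V cells (log2 fold change -1.83, adjusted p = 0.0619). The other 3 tested ligands had positive values, among them WNT10B with 3.41 and 1.94 CPM in MCF10A and 7.91 and 7.98 CPM in G12V cells (1.57, adjusted p = 0.0537) and WNT3 with 4.41 and 4.14 against 5.56 and 6.42 CPM (0.49, adjusted p = 0.399). WLS, which carries WNT proteins to the cell surface, had 48.3 and 81.5 CPM (0.76, adjusted p = 0.0640). LGR4, a receptor of R-spondins, had 69.9 and 81.7 CPM (0.22, adjusted p = 0.522). CTNNB1, which encodes β-catenin, had 423 and 283 CPM (-0.58, adjusted p = 0.127). None passed edgeR's quasi-likelihood test. DESeq2 called WLS higher (adjusted p = 0.0347) and not WNT9A (0.0651), and the exact test called WLS higher (0.0209) and WNT9A lower (0.00676).

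**Figure D3:**
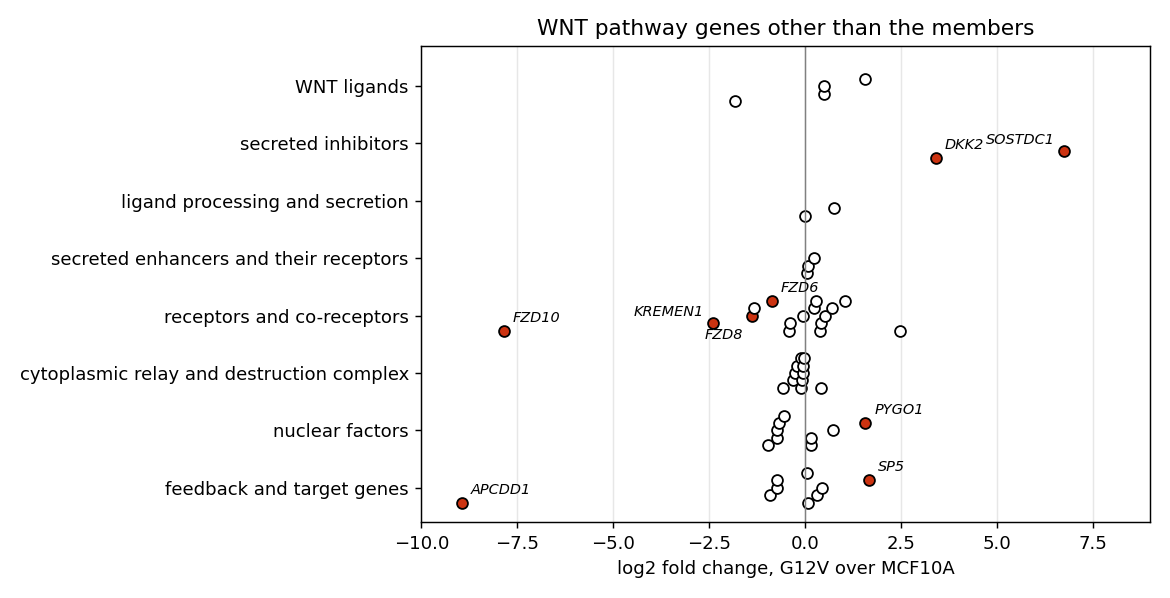
Log2 fold change in G12V over MCF10A of the tested WNT pathway genes other than the members, by sub-list, with filled and named points for called genes. The 4 called higher lie among secreted inhibitors, nuclear factors and targets, and 4 of the 5 called lower are receptors. Fitted values of APCDD1, FZD10 and SOSTDC1, each with no read in a group, depend on the prior count.

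The nearest tested gene on either side of each member was read as well. Of the 18 neighbours, 2 were called, both lower, and 16 were not. With 5.01% of all tested genes called higher and 5.95% lower this count stands near the background, and both called neighbours entered the test through the MCF10A libraries alone. LINC01468, 133 kb to the right of DKK1, had 367 and 192 reads in MCF10A and 4 and 5 in G12V cells (log2 fold change -5.96, SE 0.56, adjusted p = 0.00334 in edgeR). CACNA2D3, a calcium channel subunit gene 391 kb to the left of WNT5A, had 29 and 56 reads in MCF10A and 7 and 7 in G12V cells, so that it was lower where WNT5A was higher (log2 fold change -2.61, adjusted p = 0.0295), and it was not called without MCF10A replicate 2 (0.153). On the other side of WNT5A, ERC2 had a log2 fold change of 1.68 (adjusted p = 0.129). The nearest tested genes to SFRP1 were GOLGA7 at 181 kb with -0.20 (adjusted p = 0.562) and IDO1, as far off as 1333 kb, with 0.08 (adjusted p = 0.957). Beside WNT7A, HDAC11 had -1.38 (adjusted p = 0.0553) and the pseudogene FGD5P1 0.33 (adjusted p = 0.722).

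Nutlin-3a did not bring any member past the threshold. In the fit without the replicate number, 5 of the 9 members were tested and 0 called, at an unadjusted p under 0.05 also 0. That fit called 0.155% of the 13529 tested genes higher and 0.0148% lower. DESeq2 and edgeR's exact test, also without the replicate number, called 0 members. With the replicate number as a block, 0.702% were called higher and 0.517% lower, and again no member. The numbers are small, and a missed threshold does not show that the levels were alike.

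In edgeR's fit without the block, DKK1 had the lowest unadjusted p of the 5 (0.115). DMSO libraries had 42.3, 67.5 and 43.8 CPM in replicates 1 to 3, and Nutlin-3a libraries 24.4, 46.2 and 41.0 CPM. Each Nutlin-3a library was below the DMSO library of the same number, and the groups overlapped. The log2 fold change was -0.46 (SE 0.26, adjusted p = 1.00 in edgeR) and with the block -0.47 (adjusted p = 0.0721).

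SFRP1 had 343, 268 and 334 CPM after DMSO and 371, 251 and 316 CPM after Nutlin-3a, with a log2 fold change of -0.01 (SE 0.16). WNT5A had 8.74, 18.6 and 9.45 CPM after DMSO and 10.3, 14.3 and 7.76 CPM after Nutlin-3a (log2 fold change -0.18, SE 0.33), and its row overlaps that of the antisense gene WNT5A-AS1. WNT7A had 8.52, 3.44 and 7.93 CPM after DMSO and 8.87, 3.22 and 6.45 CPM after Nutlin-3a (-0.10, SE 0.42). For these genes the libraries numbered 2 stood apart from the others in both treatments, with the highest WNT5A and the lowest WNT7A and SFRP1. The same libraries had the lowest summed epithelial markers (3571 and 3829 CPM, against 5139 to 6484 CPM in the other 4). They also had the highest summed mesenchymal markers (3823 and 3583 CPM, against 1622 to 2558 CPM). FN1 made up most of these mesenchymal sums, with 2951 and 2740 CPM, against 695 to 1822 CPM in the other 4. ZEB1, ZEB2 and SPARC were also highest in the libraries numbered 2, while VIM was highest in those numbered 1 (802.2 and 730.5 CPM). The part of these markers in the members' levels was not tested. WNT7B had 3.10, 2.15 and 3.21 CPM after DMSO and 3.69, 2.73 and 2.83 CPM after Nutlin-3a (0.13, SE 0.25). The adjusted p was 1.00 in edgeR's fit without the block for each of these 4, and the fit with the block called none of them.

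The 4 members not tested had few reads. WNT10A had 5, 1 and 1 reads after DMSO and 6, 3 and 9 after Nutlin-3a, DKK3 had 15, 6 and 8 against 15, 8 and 2, and AXIN2 had 7, 7 and 3 against 1, 6 and 3. The groups overlapped for each. WNT5B had 1 read in all 3 DMSO libraries together and 1 in the Nutlin-3a libraries. Its row in this table is that of a transcript of 530 bases, where the canonical transcript has 2238 bases, so this row does not give the level of the whole gene. Rows of the other members carry a transcript name too. It is the canonical one except for WNT5A (6042 against 5841 bases) and DKK3 (2636 against 2525 bases).

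Of the 80 other pathway genes, 47 were tested after Nutlin-3a and none was called by edgeR's quasi-likelihood test, DESeq2 or the exact test. The median log2 fold change was -0.03, against 0.0066 over all tested genes. In edgeR's fit without the block 2 genes, FZD1 (-0.31) and FZD8 (-0.47), had an unadjusted p under 0.05, both lower, against 3.42% of all tested genes. Genes called in G12V cells were here FZD6 (0.05), KREMEN1 (0.01), PYGO1 (-0.05) and SP5 (-0.83), all with an adjusted p of 1.00, and DKK2, SOSTDC1, FZD10 and APCDD1 were too low to be tested.

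Untreated MCF10A and DMSO-treated MCF10A, both parental cells, are in tables on different annotations that were normalized separately, so their levels are only set side by side. DKK1 had 232 ± 24.7 CPM (SD, n = 2) untreated and 51.2 ± 14.2 CPM (SD, n = 3) with DMSO, and SFRP1 507 ± 20.3 and 315 ± 40.6 CPM. WNT7A had 6.85 ± 0.785 and 6.63 ± 2.78 CPM, WNT5A 6.24 ± 0.297 and 12.3 ± 5.53 CPM and WNT7B 3.29 ± 0.548 and 2.82 ± 0.583 CPM.

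**Figure D4:**
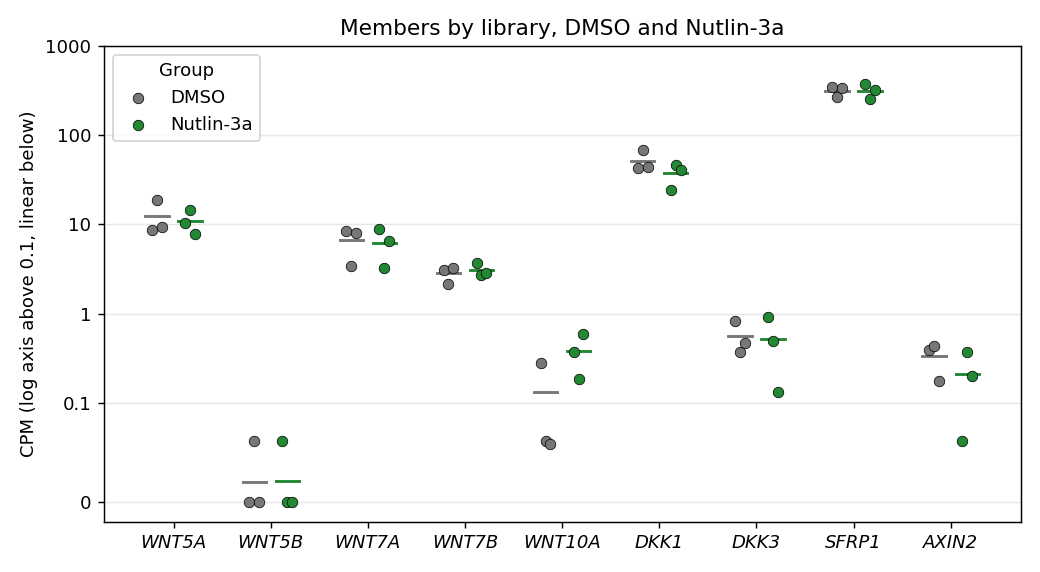
CPM of the 9 members in each DMSO (grey) and Nutlin-3a (green) library, on an axis that is logarithmic above 0.1 CPM and linear below. Points are libraries, placed by replicate number from left to right within a group, and short lines the means of 3. The groups overlap for every member.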

How the data were processed

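RNA-seq of 10 libraries of an established cell line was used. The authors mapped reads to hg19 with TopHat and deposited the raw counts per gene that HTSeq gave, with no normalization. The annotations, the strand setting and the handling of overlapping genes are not given in the sources used here, and the library kit does not mark strand, so reads of WNT5A and of the antisense gene WNT5A-AS1 cannot be told apart. Total counts were 21538593 to 23683975 per library in the untreated table and 15453226 to 17378734 in the Nutlin-3a table. Reads carried no molecular identifiers and are not independent molecules, so intervals and bounds describe counting error alone.

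Samples were grouped by the labels. The 2 comparisons were fitted apart by edgeR 4.0.16 in R 4.3.3 (filterByExpr, TMM, quasi-likelihood F-test, prior count 0.125, Benjamini-Hochberg adjustment over all tested genes). The SE is the size of the log2 fold change divided by the root of F. The fits were first tested on simulated data. Alternatives tried were the exact test of edgeR, DESeq2 1.42.0, 3 other normalizations, 2 other filters, a prior count of 2, an unadjusted p, the replicate number as a block and the omission of each library. Named genes were the members, every called gene of the WNT pathway list, the gene with the highest mean CPM of each sub-list without a call and the nearest tested genes on either side of each member. FZD1, FZD4, WNT3 and WNT10B were named after their values were seen. Members and lists were chosen with earlier results of these data known. The labels number the DMSO and Nutlin-3a libraries 1 to 3, and those numbers were taken as pairing, because deviations from group means had correlations of 0.62, 0.60 and 0.64 within a number but -0.47 to -0.19 across numbers. The main fit left these numbers out, and only the fit with the block used them. Transcript lengths came from GENCODE on GRCh37, start regions from RefSeq on GRCh38.p14, searched with Python 3.11.15. ATAC-seq, ChIP-seq and 4C were not used here. A gene of the marker lists is not reported here.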

Additional observations from a re-analysis of the deposited data

How the results depend on the processing

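In G12V cells 1 member was called higher and 2 lower, among 1575 genes called in all. The calls of WNT5A, WNT7A and SFRP1 held under every alternative except the omission of MCF10A replicate 1. DESeq2 called 4 members lower, the exact test of edgeR 2 higher and 5 lower, and the unadjusted p under 0.05 with a fold above 1.3 gave 2 and 6. The replicate block gave 2 and 6, with WNT5B, DKK1, DKK3, WNT10A and AXIN2 added. Calls over all genes rose too, to 2307 with DESeq2, 2536 with the exact test, 3676 with the unadjusted p and 4158 with the block, and edgeR's fit without MCF10A replicate 1 called 0, with 2830 genes at an unadjusted p under 0.05. Leaving out 1 library gave 0 to 1 members higher and 0 to 4 lower. In the pathway list, with 4 higher and 5 lower, the exact test gave 7 and 8, the unadjusted p 10 and 12, the replicate block 11 and 11, and leaving out 1 library 0 to 5 higher and 0 to 6 lower. These shared numbers are only 2 pairs and were not taken as pairing (correlation 0.49 within a number, -0.49 across). The sign of WNT7B turned in fits without 1 library (-0.65 to 0.27). After Nutlin-3a no member was called under any alternative, and the block changed no call of a member or pathway gene. The unadjusted p with the fold gave 1 pathway gene lower. Each omission after Nutlin-3a used the fit without the replicate number and kept the other library of that number, so it broke a pair. In these fits the sign turned for WNT5A (-0.44 to 0.25), WNT7A (-0.46 to 0.21), WNT7B (-0.031 to 0.23) and SFRP1 (-0.15 to 0.13). The alternatives for named genes that are no members were chosen after seeing the data. The cause of these differences was not tested. WNT5B, WNT10A, DKK3 and AXIN2 rest on at most 47 reads in any library.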
